A study of Mus musculus with 8 samples.

Results

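The STING antagonists SN-011 and H151, both small molecules, were compared with each other in Trex1-knockout macrophages, so as to describe where their effects on RNA differed away from the interferon response that both lowered. The comparison used 4 of the 8 libraries of the study, chosen by their sample labels: 2 libraries of Trex1-KO bone marrow-derived macrophages (BMDMs) given SN-011 and 2 given H151. All libraries were made from BMDMs, macrophages grown for 7 days from the marrow of mice aged 6 to 8 weeks in medium conditioned by L929 cells, and incubated for 12 h with DMSO vehicle or antagonist. The Trex1-KO cells lacked the DNA exonuclease Trex1 from the germline and came from Trex1-/- mice, with 2 libraries each for vehicle, H151 and SN-011. The other 2 libraries were from wild-type (WT) mice with vehicle. H151 was used at 500 nM, and per the study's methods SN-011 was used at the same concentration, which the labels do not give. The study describes the 2 libraries of a group as independent experiments, and no source says whether they came from separate animals, so the p-values measure the spread between these libraries, which may be technical.

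STING is the membrane protein that relays detection of cytosolic DNA. The enzyme cGAS binds DNA and makes the cyclic dinucleotide cGAMP, which binds STING, and STING then recruits the kinase TBK1, which activates the transcription factor IRF3 and, through it, type I interferon and interferon-stimulated genes. Trex1 degrades cytosolic DNA, so cells without it keep the pathway on. H151 is a covalent ligand of a STING cysteine that blocks palmitoylation of the protein, while SN-011 sits in the pocket that binds cyclic dinucleotides. Each compound was set against the other at 1 dose and 1 time, which makes 1 pair of compounds.

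Total counts were 12304509 and 15088900 in the H151 libraries and 17284863 and 11845470 in the SN-011 libraries. Levels are in CPM, the counts of each library brought to one shared total by TMM factors, and library values are in the order of replicates 1 and 2. Each fold change rests on 2 libraries a side, and SE is its standard error on the log2 scale. All 23 listed macrophage identity genes were tested, and 0 were called between the antagonists by edgeR, DESeq2 or the exact test. In edgeR 1 lay higher and 1 lower at an unadjusted p under 0.05 (4.27% and 4.64% of all genes). Their summed level ran from 43380 to 44780 CPM in the 4 libraries. No library, WT or knockout, held a read pair assigned to Trex1, so the genotype was taken from the labels alone. The SN-011 libraries were deposited later than the other 6 with another treatment text, so SN-011 and a batch of its own cannot be told apart. The vehicle libraries were deposited with the H151 libraries, so SN-011 against vehicle carries the same limit. Replicate 1 of H151 and replicate 1 of SN-011 each stood apart in RNA classes described near the end, and the calls lost without either are named.

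In the main fit few genes were called between SN-011 and H151, and each of those was lower with SN-011. Of 14591 tested genes, 23 (0.158%) were called at a false discovery rate (FDR) under 0.05 in the edgeR quasi-likelihood test, with 23 lower and 0 higher. By contrast, against vehicle H151 called 325 genes (2.23%) and SN-011 called 340 (2.33%). At an unadjusted p under 0.05, 623 genes (4.27%) were higher and 677 (4.64%) lower with SN-011 than with H151. DESeq2 called 3 genes higher and 38 lower, and the edgeR exact test 24 higher and 60 lower. The 95% interval of the log2 fold change lay within 2-fold in either direction for 11628 genes (79.7%). Only 3 of the 23 called genes changed at least 2-fold, namely Gpr141, Ahrr and Mmp8, and the log2 fold changes of the 23 ran from -1.56 to -0.30. In all 23, both SN-011 libraries lay below both H151 libraries, which was so for 2921 (20%) of all tested genes. The call itself favours such genes.

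The number of calls rested on single libraries. It was 2 without replicate 1 of SN-011, 11 without replicate 2 of SN-011, 17 without replicate 1 of H151 and 291 without replicate 2 of H151, of which 190 were higher and 101 lower. With genes of at least 1 count kept, 152 were called higher and 114 lower. Notch1 and Ahrr kept their call in all 13 alternative fits. No called gene changed direction in them, but leaving out a library could hardly reverse one, since the antagonist libraries did not overlap in these genes. Without replicate 1 of SN-011 the other 21 genes lost their call, and their edgeR adjusted p-values then began at 0.297, while their log2 fold changes ran from -1.89 to -0.30. Without replicate 1 of H151, Cd74, Clec4d, Csf2rb2, Cyp1b1, Exoc3, Ggta1, Gpr141 and Pdgfb lost their call, and without replicate 2 of SN-011 only Notch1, Ahrr, Ptgs1, Pf4 and Mmp8 of the 23 kept it.

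**Figure D1:**
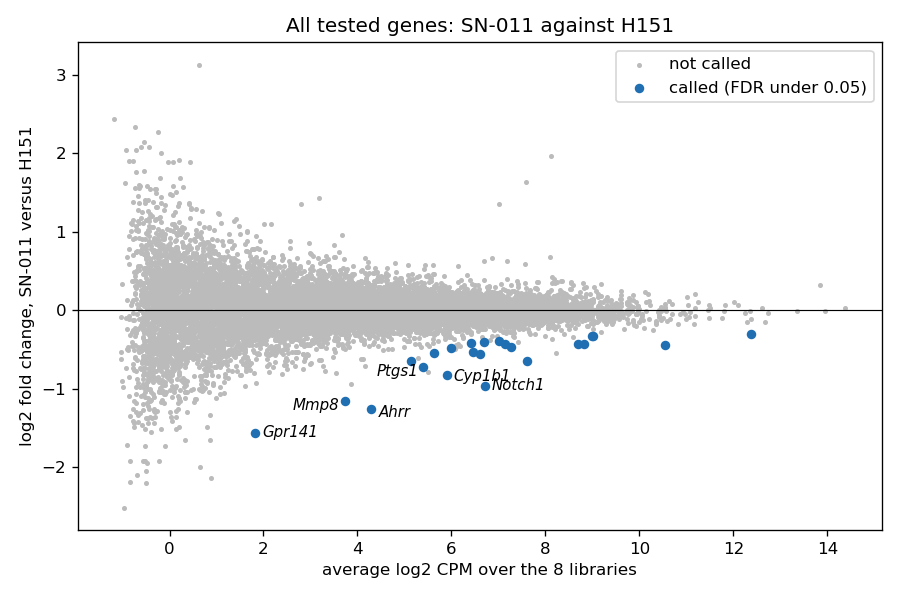
Log2 fold change of SN-011 versus H151 (vertical axis) against the average log2 CPM over the 8 libraries (horizontal axis) for the 14591 tested genes, 1 point per gene. The 23 called genes, in blue, all lie below 0, from -0.30 to -1.56, at low and at high levels.

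Both H151 libraries lay above both vehicle libraries in 20 of the 23 genes, and both SN-011 libraries lay below both vehicle libraries in 11. The 23 were called for lying lower with SN-011 than with H151, which favours both counts. In 16 of the 23 genes H151 was also called higher than vehicle, with log2 fold changes from 0.34 to 1.47, while SN-011 against vehicle ran from -0.30 to 0.32 with a median of -0.02 and passed an unadjusted p of 0.05 in 0 of the 16. A further 4 genes, Cd74, Il21r, C5ar1 and Ehd1, were called lower with SN-011 than with vehicle and were not called with H151. The other 3, Csf2rb, Csf2rb2 and Clec4d, were called against vehicle with neither compound. Over all tested genes, H151 called 56 (0.384%) higher than vehicle and SN-011 called 16 (0.11%). The comparisons share libraries, so their values are set side by side only as a description. Of the 16 genes called higher with H151, both WT libraries lay above both vehicle libraries in 8 and below them in 5, with overlap in 3. Of the 4 called lower with SN-011, WT lay below vehicle in 4. The counts against the vehicle libraries, for both antagonists and for WT, were not made over all tested genes. They therefore have no share beside them.

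**Figure D2:**
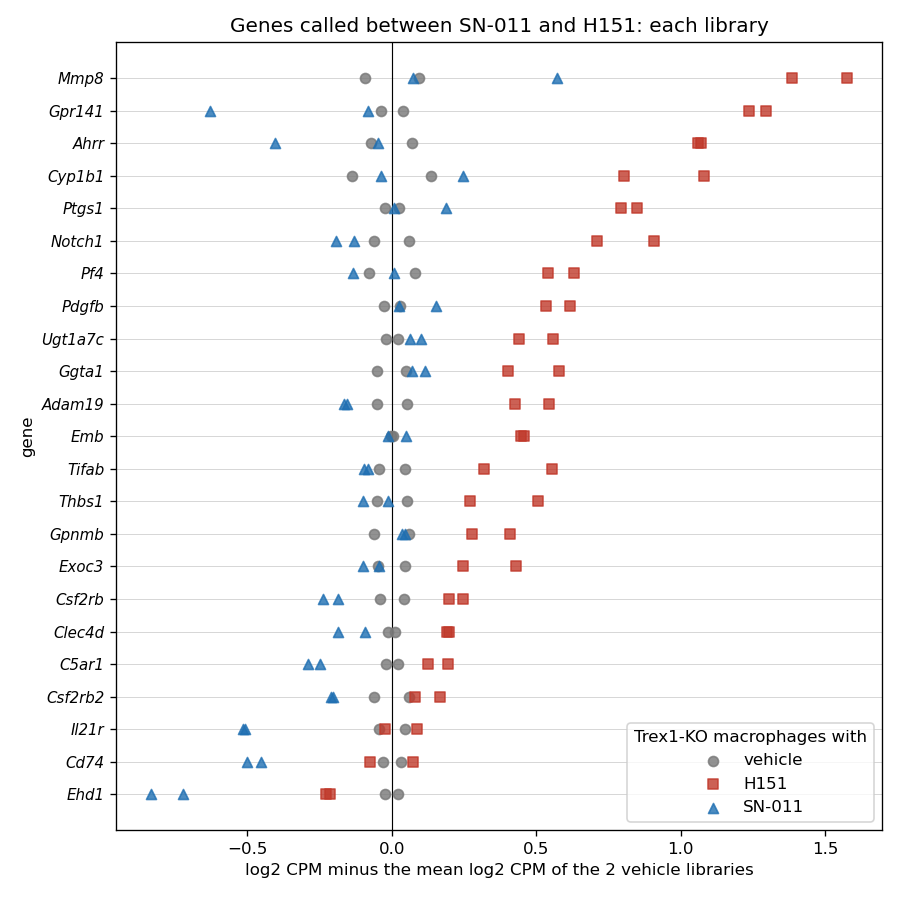
Level of each of the 23 called genes in each Trex1-KO library, as log2 CPM minus the mean of the 2 vehicle libraries (horizontal axis), 1 row per gene and 1 point per library. H151 points (red squares) lie to the right of vehicle (grey circles) in most rows while SN-011 points (blue triangles) lie near 0, and the lowest rows, Il21r, Cd74 and Ehd1, show SN-011 to the left of vehicle.

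The aryl hydrocarbon receptor (AhR) axis held 3 of the called genes. AhR is a ligand-activated transcription factor that pairs with Arnt, binds dioxin response elements and switches on enzymes of xenobiotic metabolism together with its own repressor, Ahrr. Ahrr (ENSMUSG00000021575, chromosome 13, 74211118 to 74292331) measured 16.15 and 14.6 CPM with vehicle, 32.0 and 32.3 CPM with H151 and 14.9 and 11.6 CPM with SN-011. Both H151 libraries stood at about the same level, above the other 4. On the log2 scale SN-011 differed from H151 by -1.26 ± 0.13 (SE, FDR 0.00141 in edgeR), H151 from vehicle by 1.06 (FDR 0.000219 in edgeR) and SN-011 from vehicle by -0.20 (FDR 0.61 in edgeR).

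Cyp1b1 (ENSMUSG00000024087, chromosome 17, 79701537 to 79715061), a cytochrome P450 that oxidises estrogens and polycyclic hydrocarbons and is an AhR target, measured 38.3 and 31.7 CPM with vehicle, 73.65 and 60.9 CPM with H151 and 41.4 and 34.0 CPM with SN-011. The H151 libraries lay above all others of the knockout, and the SN-011 libraries overlapped vehicle. SN-011 was lower than H151 by a log2 fold change of -0.82 ± 0.13 (SE, FDR 0.027 in edgeR), and H151 exceeded vehicle by 0.94 (FDR 0.00111 in edgeR). WT cells had a mean of 97.8 CPM, above every knockout library. The call was lost without replicate 1 of H151 (edgeR adjusted p = 0.0878) and without either SN-011 library (0.297 and 0.396).

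Ugt1a7c (ENSMUSG00000090124, chromosome 1, 88095062 to 88220002) encodes a UDP-glucuronosyltransferase, an enzyme that conjugates xenobiotics, and measured 75.4 and 77.7 CPM with vehicle, 104 and 113 CPM with H151 and 79.9 and 82.1 CPM with SN-011. The H151 libraries were the highest, the SN-011 libraries lay a little above vehicle, and the log2 fold change between the antagonists was -0.42 ± 0.07 (SE, FDR 0.0261 in edgeR). Exons of other genes, among them the other Ugt1a genes, cover 54.6% of its exonic length, so its share of the locus is uncertain. Ugt1a6a from the same locus measured 3.99 and 4.03 CPM with H151 and 3.43 and 4.84 CPM with SN-011, with a log2 fold change of 0.02, edgeR FDR 0.989.

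The promoters of these 3 genes are shown because the core of the dioxin response element is a short fixed motif that can be read in them. Each runs from 250 bases before to 50 after the RefSeq start (build GRCm38.p6), with the motif GCGTG, or its reverse complement CACGC on the other strand, in capitals. Ahrr is chr13:74292282-74292581 (minus strand), Cyp1b1 is chr17:79715012-79715311 (minus strand) and Ugt1a7c is chr1:88094751-88095050 (plus strand).
Ahrr: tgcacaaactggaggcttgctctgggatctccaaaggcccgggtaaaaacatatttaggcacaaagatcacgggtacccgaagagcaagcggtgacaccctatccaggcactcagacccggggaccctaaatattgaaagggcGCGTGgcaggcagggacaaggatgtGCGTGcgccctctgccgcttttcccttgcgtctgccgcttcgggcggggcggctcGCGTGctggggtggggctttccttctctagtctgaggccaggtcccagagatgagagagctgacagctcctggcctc
Cyp1b1: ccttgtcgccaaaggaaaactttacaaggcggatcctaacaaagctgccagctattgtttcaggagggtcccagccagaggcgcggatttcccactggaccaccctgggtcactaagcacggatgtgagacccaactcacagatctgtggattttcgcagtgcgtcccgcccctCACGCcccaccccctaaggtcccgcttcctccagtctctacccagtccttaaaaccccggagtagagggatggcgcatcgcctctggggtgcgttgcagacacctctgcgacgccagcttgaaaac
Ugt1a7c: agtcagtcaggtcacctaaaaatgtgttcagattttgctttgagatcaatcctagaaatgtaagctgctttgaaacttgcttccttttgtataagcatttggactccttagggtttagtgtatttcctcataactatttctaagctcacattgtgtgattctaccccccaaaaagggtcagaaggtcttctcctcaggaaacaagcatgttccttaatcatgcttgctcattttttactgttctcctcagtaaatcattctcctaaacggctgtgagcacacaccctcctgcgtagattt
Ahrr held 3 matches, at positions -107, -82 and -27 from the start, Cyp1b1 held 1 at -76, and Ugt1a7c held 0. At least 1 match occurs in 32.4% of the 32851 promoters of the same length. Of the 23 called genes, 18 had a promoter in the table, and 4 of the 18 (22.2%) held a match. The longer form TNGCGTG, which contains the core, stands in 5.1% of all promoters and in 1 of the 18 genes, Ahrr.

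Of 27 listed AhR genes, 20 were tested, 3 were called lower (0.158% of all genes), 0 higher, and 8 lay lower at an unadjusted p under 0.05 (4.64%). Their median log2 fold change was -0.17, beside 0.0029 over all tested genes, and both SN-011 libraries lay below both H151 libraries in 10 of the 20, beside 20% of all genes. The list was chosen with earlier results of these data known, and the 3 called genes enter each of these values. Cyp1a1 and Cyp1a2, the classical AhR targets, had 0 counts in all 8 libraries, which allows up to 3 counts or between 0.174 and 0.253 CPM in a library. Tiparp, a mono-ADP-ribosyltransferase induced by AhR, measured 54.6 and 53.6 CPM with H151 and 45.5 and 42.8 CPM with SN-011, and its log2 fold change of -0.29, edgeR FDR 0.273 was not called. Nor was that of Tnfaip2 (-0.30, edgeR FDR 0.33), which measured 393 and 357 CPM with vehicle, 348.5 and 341 CPM with H151 and 285 and 275 CPM with SN-011. Against vehicle, H151 was called higher for 3 members of the list (0.384% of all genes), the same 3 that were called between the antagonists, and lower for 0. SN-011 was called higher for 0 and lower for 2 (2.22%), Tnfaip2 at -0.42 (FDR 0.0151 in edgeR) and Lpcat2 at -0.44 (FDR 0.00149 in edgeR), for which H151 gave -0.12 (FDR 0.785 in edgeR) and -0.25 (FDR 0.086 in edgeR). Nqo1, a quinone reductase, was scarce at 2.44 and 2.55 CPM and 1.51 and 1.87 CPM, with an interval from -1.41 to 0.25.

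No difference in the receptor itself was detectable at this depth. Ahr measured 14.9 and 12.0 CPM with H151 and 12.5 and 15.3 CPM with SN-011, so the groups overlapped, and the interval of the log2 fold change ran from -0.27 to 0.35. For Arnt, its partner, the interval ran from -0.20 to 0.13. Arnt2 was near the detection limit, with an interval from -1.34 to 1.53. The chaperones of the unbound receptor gave log2 fold changes of -0.21 for Hsp90aa1, -0.13 for Hsp90ab1 and -0.09 for Ptges3, and none was called. Further members that were not called gave -0.20 for Lpcat2, -0.15 for Gstm1, 0.16 for Selenbp1, -0.45 for Serpinb2, -0.19 for Slc7a5 and -0.05 for Nfe2l2.

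**Figure D3:**
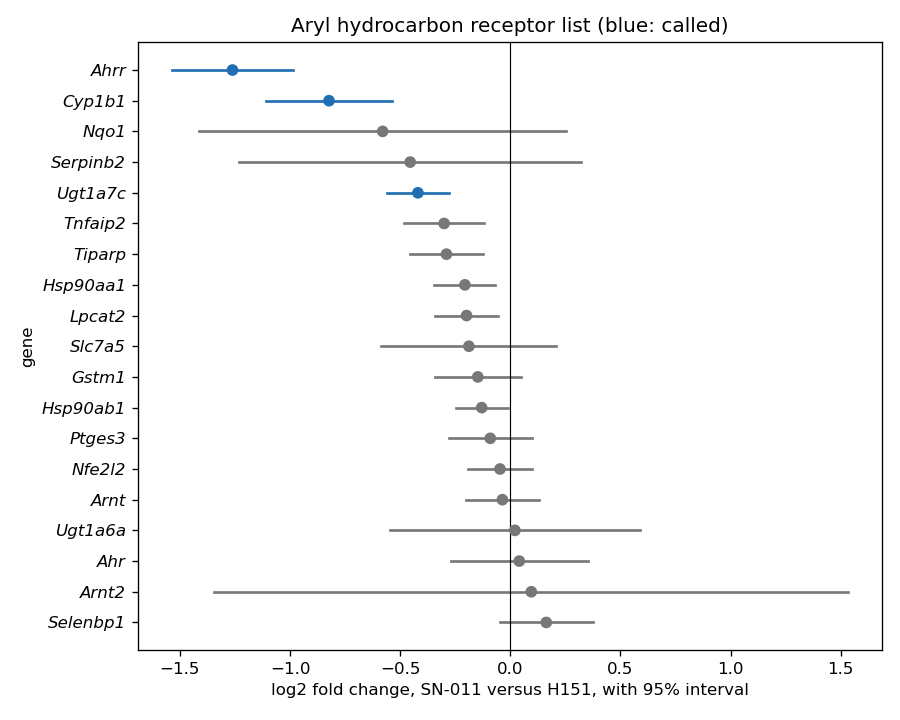
Log2 fold change of SN-011 versus H151 (horizontal axis) with its 95% interval (line) for 19 of the 20 tested genes of the AhR list, 1 row per gene. Ahrr, Cyp1b1 and Ugt1a7c (blue, called) have intervals wholly below 0, while Ahr, Arnt and Arnt2 straddle 0.

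Exoc3, a subunit of the exocyst complex that tethers secretory vesicles, was also called. It lies 2385 bases from the end of Ahrr, downstream on the same strand of chromosome 13. Exoc3 measured 94.4 and 101 CPM with vehicle, 131 and 116 CPM with H151 and 90.9 and 94.7 CPM with SN-011, a log2 fold change of -0.41 ± 0.07 (SE, FDR 0.0455 in edgeR) between the antagonists. Whether transcripts of Ahrr run on into Exoc3 was not tested. The call was lost without replicate 1 of H151 and without either SN-011 library.

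Notch1 gave the smallest p-value of the comparison. It encodes a receptor that is cut on contact with ligands on neighbouring cells and then acts with Rbpj on target genes. Notch1 (ENSMUSG00000026923, chromosome 2, 26457903 to 26516663) measured 92.5 and 85.0 CPM with vehicle, 166 and 145 CPM with H151 and 77.5 and 81.0 CPM with SN-011. The H151 libraries were set apart above the 4 others, which lay close together, and the WT mean was 95.3 CPM. Between the antagonists the log2 fold change was -0.97 ± 0.08 (SE, FDR 0.000119 in edgeR), H151 exceeded vehicle by 0.81 (FDR 2.86e-05 in edgeR), and SN-011 differed from vehicle by -0.16 (FDR 0.422 in edgeR). Over the 4 fits without a library the log2 fold change between the antagonists ran from -1.07 to -0.87. Of 13 tested Notch receptors, ligands and targets, Notch1 was the single call (0.158% of all genes), and 2 were lower at an unadjusted p under 0.05 (4.64%). The second was Rbpj, chosen here after its values were seen, at 193 and 169.9 CPM with H151 and 154 and 153 CPM with SN-011 (log2 fold change -0.24, edgeR FDR 0.391).

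Called genes for lipid mediators and secreted factors, Ptgs1, Pf4, Pdgfb and Thbs1, were called above vehicle with H151 and not with SN-011. Ptgs1 (ENSMUSG00000047250, chromosome 2, 36230426 to 36252272), which encodes cyclooxygenase-1, measured 33.2 and 32.1 CPM with vehicle, 58.7 and 56.6 CPM with H151 and 32.8 and 37.2 CPM with SN-011. The log2 fold change was -0.72 ± 0.09 (SE, FDR 0.00507 in edgeR) between the antagonists and 0.82 (FDR 7.32e-05 in edgeR) for H151 versus vehicle. Of 16 tested genes of prostaglandin and leukotriene synthesis, Ptgs1 was the single call of edgeR (0.158% of all genes), the exact test called 2, and the median was -0.02.

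Pf4 (ENSMUSG00000029373, chromosome 5, 90772435 to 90773383), platelet factor 4, is a chemokine best known from platelet granules. Its level was 173 and 193 CPM with vehicle, 283 and 265.5 CPM with H151 and 166.5 and 184 CPM with SN-011. Vehicle and SN-011 overlapped, and the antagonists differed by -0.65 ± 0.08 (SE, FDR 0.0117 in edgeR). Pdgfb, the B chain of platelet-derived growth factor, measured 57.1 and 54.9 CPM with vehicle, 85.8 and 81.1 CPM with H151 and 57.0 and 62.25 CPM with SN-011, which gave -0.49 ± 0.08 (SE, FDR 0.0303 in edgeR), and an edgeR adjusted p of 0.115 without replicate 1 of H151. Thbs1, a matricellular protein that activates latent TGF-beta, was the most abundant of the group at 1181 and 1098 CPM with vehicle, 1618 and 1373 CPM with H151 and 1129 and 1063 CPM with SN-011, and differed by -0.45 ± 0.07 (SE, FDR 0.0261 in edgeR). The WT libraries had more Thbs1 than any knockout library, 2225 and 2322 CPM. Thbs1 was named after its values were seen, as were Csf2rb, Csf2rb2, Emb, Ggta1, Exoc3 and Gpr141, so that every called gene is accounted for.

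Mmp8 and Adam19, both metalloproteases, were also called. Mmp8 (ENSMUSG00000005800, chromosome 9, 7558456 to 7568485), a collagenase, measured 8.45 and 9.63 CPM with vehicle, 26.9 and 23.6 CPM with H151 and 9.48 and 13.4 CPM with SN-011. Both H151 libraries were the highest, and replicate 2 of SN-011 lay above vehicle. The log2 fold change was -1.16 ± 0.16 (SE, FDR 0.0117 in edgeR) between the antagonists, 1.47 (FDR 0.000127 in edgeR) for H151 versus vehicle and 0.32 (FDR 0.511 in edgeR) for SN-011 versus vehicle. Adam19, a membrane-bound metalloprotease that sheds ligands such as neuregulins, measured 28.9 and 31.1 CPM with vehicle, 43.7 and 40.3 CPM with H151 and 26.7 and 26.9 CPM with SN-011, a difference of -0.65 ± 0.09 (SE, FDR 0.0117 in edgeR). In WT cells Adam19 measured 42.25 and 42.6 CPM, within the range of the H151 libraries. Of 15 tested metalloproteinases and TIMPs, 1 was called by edgeR (0.158% of all genes) and 2 by DESeq2 and the exact test. The median was -0.06, and 6 lay lower at an unadjusted p under 0.05 (4.64% of all genes). Among these, and named after their values were seen, Mmp27 measured 35.7 and 36.5 CPM with vehicle, 55.6 and 55.2 CPM with H151 and 36.95 and 43.65 CPM with SN-011 (-0.47, edgeR FDR 0.0823). Mmp12, the macrophage elastase, measured 18.1 and 15.2 CPM, 30.1 and 24.25 CPM and 15.6 and 19.9 CPM in the same order (-0.62, edgeR FDR 0.271). H151 was called above vehicle for both.

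Since Mmp8 is made by neutrophils and secreted factors by stromal cells, the markers of those cells were read beside it. The 10 tested neutrophil markers, Mmp8 among them, summed to 471 and 434 CPM with H151, 404.5 and 453 with SN-011 and 444 and 427 with vehicle. The groups thus overlapped, and Mmp8 was the single call (0.158% of all genes). Ly6g had at most 3 counts in any library, Elane at most 7 and Mpo at most 11. The 16 tested fibroblast and stromal markers summed to 3081 and 2635 CPM with H151, 2754 and 2377 with SN-011 and 2664 and 2141 with vehicle. In WT cells they summed to 5937 and 5315 CPM. Of these markers 0 were called in any of the 3 comparisons. At an unadjusted p under 0.05, 2 lay lower with SN-011 than with H151 (4.64% of all genes) and 7 higher with H151 than with vehicle (4% of all genes). DESeq2 and the exact test called 0 of them between the antagonists. Over the 16 markers the median log2 fold change against vehicle was 0.26 with H151 and 0.15 with SN-011, and between the antagonists it was -0.11. Their part in the differences above was not tested, and in bulk libraries fewer cells of a type and less RNA per cell cannot be told apart.

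Tifab, Emb, Gpnmb, Ggta1 and Gpr141 encode membrane and signalling proteins and were called above vehicle with H151. Tifab, a TIFA-related protein that restrains TRAF6 signalling, measured 81.0 and 86.3 CPM with vehicle, 104 and 123 CPM with H151 and 78.9 and 78.2 CPM with SN-011, a difference of -0.53 ± 0.08 (SE, FDR 0.0192 in edgeR) between the antagonists. Emb, or embigin, a chaperone of monocarboxylate transporters, had 126 and 127 CPM, 172 and 174 CPM and 125 and 131 CPM in the same order and differed by -0.43 ± 0.06 (SE, FDR 0.0117 in edgeR). The 2 H151 libraries agreed closely for Emb and the other 4 lay together below them.

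Gpnmb, a lysosomal glycoprotein of lipid-laden macrophages, was the most abundant called gene at 4901 and 5329 CPM with vehicle, 6202 and 6782 CPM with H151 and 5237 and 5280 CPM with SN-011, and had the smallest change, -0.30 ± 0.05 (SE, FDR 0.0455 in edgeR). Ggta1, the alpha-1,3-galactosyltransferase, measured 116 and 108 CPM, 168 and 148 CPM and 118 and 121.5 CPM in that order and differed by -0.40 ± 0.07 (SE, FDR 0.0455 in edgeR), or an adjusted p of 0.265 without replicate 1 of H151. Gpr141, an orphan G protein-coupled receptor, had the largest change and the lowest level of all called genes. It measured 2.94 and 3.10 CPM with vehicle, 7.41 and 7.12 CPM with H151 and 2.85 and 1.95 CPM with SN-011, a log2 fold change of -1.56 ± 0.25 (SE, FDR 0.0262 in edgeR), to which DESeq2 gave no adjusted p. Without replicate 1 of H151 it was not called (log2 fold change -1.53, edgeR adjusted p = 0.0878).

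In 4 genes SN-011 was called below vehicle, while H151 versus vehicle did not pass the test. Cd74, the invariant chain that chaperones MHC class II, measured 207 and 198 CPM with vehicle, 213 and 192 CPM with H151 and 143 and 148 CPM with SN-011. The vehicle and H151 libraries overlapped, both SN-011 libraries lay below them, and the WT libraries were lower still at 73.7 and 65.7 CPM. Between the antagonists the log2 fold change was -0.48 ± 0.07 (SE, FDR 0.0192 in edgeR), while SN-011 versus vehicle gave -0.48 (FDR 0.00171 in edgeR) and H151 versus vehicle -2e-04 (FDR 0.999 in edgeR). The call between the antagonists was lost without replicate 1 of H151 (edgeR adjusted p = 0.0707) and without either SN-011 library (0.422 and 0.154). Il21r, the receptor for interleukin-21, also had SN-011 below vehicle and H151. It measured 54.55 and 58.1 CPM with vehicle, 55.4 and 59.85 CPM with H151 and 39.6 and 39.4 CPM with SN-011, a difference of -0.55 ± 0.08 (SE, FDR 0.021 in edgeR). Its WT libraries, at 46.45 and 41.95 CPM, lay above both SN-011 libraries, unlike those of Cd74.

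C5ar1, the receptor for the complement fragment C5a, measured 442 and 455 CPM with vehicle, 513 and 489 CPM with H151 and 378 and 367 CPM with SN-011. Here the 3 groups did not overlap, with H151 above and SN-011 below vehicle, and the antagonists differed by -0.43 ± 0.06 (SE, FDR 0.0134 in edgeR). Ehd1, an ATPase of endocytic recycling, measured 121 and 117 CPM, 101.5 and 103 CPM and 72.0 and 66.75 CPM in the same order of groups. Both compounds lay below vehicle for Ehd1, SN-011 by -0.77 (FDR 0.000176 in edgeR) and H151 by -0.22 (FDR 0.38 in edgeR), and the compounds differed by -0.55 ± 0.09 (SE, FDR 0.0262 in edgeR).

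Of 13 tested genes for MHC class II and costimulation, Cd74 was the single call (0.158% of all genes). The median was -0.13, and 5 lay lower with SN-011 at an unadjusted p under 0.05 (4.64% of all genes). The other 4 of the 5 were named after their values were seen. Ciita, the master regulator of MHC class II, was low at 9.13 and 6.40 CPM with vehicle, 11.6 and 10.3 CPM with H151 and 5.82 and 7.30 CPM with SN-011 (-0.75, edgeR FDR 0.288). H2-Aa, a class II alpha chain, measured 58.3 and 56.2 CPM, 58.3 and 54.5 CPM and 44.8 and 46.4 CPM in the same order (-0.31, edgeR FDR 0.309), and H2-Eb1, a beta chain, 42.5 and 40.95 CPM, 35.9 and 42.45 CPM and 33.5 and 32.6 CPM (-0.25, edgeR FDR 0.523). For Cd274, which encodes PD-L1, the values were 70.9 and 67.9 CPM with vehicle, 48.8 and 58.1 CPM with H151 and 37.9 and 45.3 CPM with SN-011 (-0.37, edgeR FDR 0.319). Against vehicle, H151 was called lower for 3 of the 13 (1.84% of all genes), namely Cd40, Icam1 and Icosl, and SN-011 for these 3 together with Cd74 and Cd274 (2.22%), with list medians of -0.06 and -0.33.

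The last 3 called genes lay on both sides of vehicle. Csf2rb, the common beta chain of the receptors for GM-CSF, interleukin-3 and interleukin-5, measured 467 and 441 CPM with vehicle, 538 and 521 CPM with H151 and 384.5 and 399 CPM with SN-011, and differed by -0.43 ± 0.06 (SE, FDR 0.0117 in edgeR). Csf2rb2, a near-identical copy that serves interleukin-3 in mice, lies 20030 bases away and measured 569.7 and 524 CPM, 613 and 577 CPM and 474 and 472 CPM in the same order, a difference of -0.33 ± 0.06 (SE, FDR 0.0455 in edgeR), or an adjusted p of 0.188 without replicate 1 of H151. Reads that fit both copies could be split or lost between them, so the pair is best read as 1 observation. Clec4d, a C-type lectin that partners Dectin-2, measured 497 and 505.5 CPM with vehicle, 575 and 571 CPM with H151 and 469 and 441 CPM with SN-011, and differed by -0.33 ± 0.06 (SE, FDR 0.0455 in edgeR), or an adjusted p of 0.109 without replicate 1 of H151.

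Targets of NRF2, the transcription factor freed when cysteines of its inhibitor Keap1 are modified, held no called gene in edgeR. Of 27 tested, edgeR called 0, DESeq2 called 1 and the exact test 4, 12 were lower and 1 higher at an unadjusted p under 0.05 (4.64% and 4.27% of all genes), and the median was -0.15. Both SN-011 libraries lay below both H151 libraries in 16 of the 27, beside 20% of all genes. Named after their values were seen, Gclm and Gclc, the subunits of the enzyme that starts glutathione synthesis, gave -0.36, edgeR FDR 0.149 and -0.47, edgeR FDR 0.217. Gclm measured 54.3 and 61.5 CPM with vehicle, 77.3 and 73.1 CPM with H151 and 59.4 and 57.3 CPM with SN-011. Txnrd1, thioredoxin reductase, measured 113 and 118.5 CPM, 128 and 134 CPM and 102 and 107 CPM in the same order (-0.33, edgeR FDR 0.0711), and Gsr, glutathione reductase, gave -0.49, edgeR FDR 0.151. Against vehicle, H151 was called higher for 3 of the 27 (Gclm, Osgin1 and Hmox1) and SN-011 for 0, beside 0.384% and 0.11% of all genes.

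Immediate early and AP-1 factors held no called gene. Of 24 tested, 0 were called by edgeR, DESeq2 or the exact test, 6 lay lower and 0 higher at an unadjusted p under 0.05 (4.64% and 4.27% of all genes), and the median was -0.08. Ier3 and Myc, named after their values were seen, were called higher with H151 than with vehicle, and the difference between the antagonists was -0.35 and -0.32.

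None of the listed interferon-stimulated genes was called between the compounds, and both lowered most of them. Of 71 tested interferon-stimulated genes, edgeR and DESeq2 called 0 between SN-011 and H151 and the exact test 1. At an unadjusted p under 0.05, 3 lay higher and 4 lower (4.27% and 4.64% of all genes). The median log2 fold change was 0.08, and over the pairs of single libraries the median difference ran from -0.09 to 0.24. Against vehicle, H151 called 64 of the 71 lower (1.84% of all genes) with a median of -0.97, and SN-011 called 62 lower (2.22%) with a median of -0.92. The summed level of the list was 9576 and 11170 CPM with H151, 10170 and 10760 with SN-011, 18450 and 17670 with vehicle and 6161 and 5349 in WT cells. Both antagonists therefore lay between vehicle and WT, and the SN-011 libraries fell between the 2 H151 libraries. For 68 of the 71 genes the 95% interval of the difference lay within 2-fold. Without replicate 2 of H151, 7 members were called.

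M7core is the study's signature of cGAS-STING activity, made of interferon-linked and other genes, and 152 of its members were tested. Of these 0 were called between the antagonists by edgeR, DESeq2 or the exact test, and 143 intervals lay within 2-fold. At an unadjusted p under 0.05, 3 lay higher and 7 lower (4.27% and 4.64% of all genes). The median was 0.03, and over the pairs of single libraries the median difference ran from -0.06 to 0.11. H151 called 86 members lower than vehicle (1.84% of all genes) and SN-011 called 89 (2.22%). Among 28 tested genes of the cGAS-STING pathway, 0 were called by any of these tests, with 2 higher and 1 lower at an unadjusted p under 0.05 (4.27% and 4.64% of all genes).

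Tmem173, the gene of the shared target STING, measured 57.0 and 48.9 CPM with vehicle, 52.0 and 51.6 CPM with H151 and 51.4 and 46.0 CPM with SN-011, with an interval of the difference from -0.29 to 0.12. Cgas measured 16.5 and 20.2 CPM with vehicle, 11.9 and 11.7 CPM with H151 and 13.7 and 13.9 CPM with SN-011, and its difference of 0.23, edgeR FDR 0.704 was not called. Acod1 and Fpr2, known from earlier results of these data, were not called between the compounds. Acod1, which makes itaconate, fell from 44.0 and 38.8 CPM with vehicle to 5.78 and 5.17 CPM with H151 and 2.85 and 2.80 CPM with SN-011, and the interval of the difference between the compounds ran from -2.32 to 0.43. The antagonist libraries did not overlap for Acod1, while the 2 WT libraries, which share in the estimate of spread, were at 13.6 and 1.69 CPM. The edgeR adjusted p was 0.698. It was 0.268 with the 4 antagonist libraries alone, 0.143 with the 6 knockout libraries, 0.0601 with these and the replicate block, and 0.00456 where genes with at least 1 count were kept. Fpr2, a formyl peptide receptor, measured 11.5 and 11.9 CPM, 3.42 and 3.36 CPM and 2.38 and 1.70 CPM in the same order of groups, with an interval from -1.87 to 0.47.

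**Figure D4:**
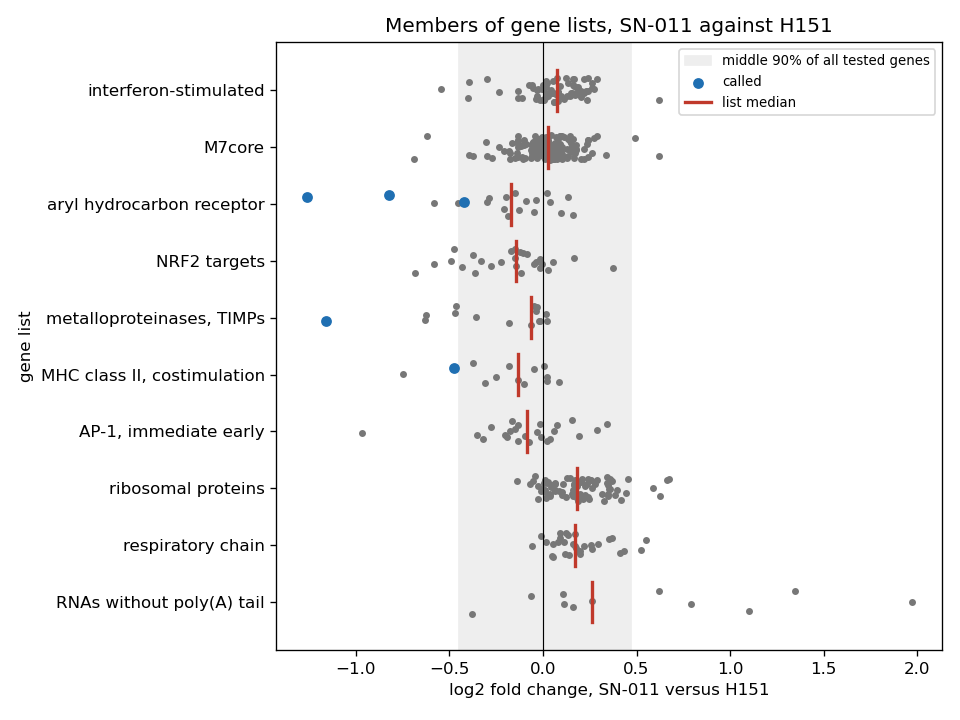
Log2 fold change of SN-011 versus H151 (horizontal axis) for the tested members of 10 gene lists, 1 point per gene, with called genes in blue, list medians as red bars and the middle 90% of all tested genes, from -0.45 to 0.47, shaded. Interferon-stimulated and M7core genes centre near 0, the AhR and NRF2 medians lie below 0, and those of ribosomal protein, respiratory chain and tail-less RNAs above it.

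On the side where SN-011 lay higher, the main edgeR fit called 0 genes, so the 6 with the smallest p-values by the naming rule were not called in it. Gm11808 measured 40.75 and 41.7 CPM with vehicle, 35.4 and 43.5 CPM with H151 and 63.8 and 53.8 CPM with SN-011, with a difference of 0.58, edgeR FDR 0.0636, and SN-011 was called above vehicle by 0.52 (FDR 0.0189 in edgeR). Tusc1 and Frat1, an inhibitor of GSK3, gave 0.55, edgeR FDR 0.141 and 0.62, edgeR FDR 0.17. Hnrnpa0, an RNA-binding protein, gave 0.37, edgeR FDR 0.155, Bri3 0.29, edgeR FDR 0.173 and Gm3435 0.96, edgeR FDR 0.141. DESeq2 called Gm11808, Gm3435 and Hnrnpa0. The edgeR exact test called these, Tusc1 and Frat1, but not Bri3. With the replicate block Gm3435 was called, and with genes of at least 1 count kept all 6 were.

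Ribosomal protein and respiratory chain genes held no called gene, and the size of their median difference depended on which H151 library was used. Of 81 tested cytosolic ribosomal protein genes, 0 were called by edgeR, DESeq2 or the exact test, 30 lay higher and 1 lower at an unadjusted p under 0.05 (4.27% and 4.64% of all genes), and the median was 0.18. Both SN-011 libraries lay above both H151 libraries in 44 of the 81, beside 19.7% of all genes. Their summed level was 25500 and 29810 CPM with H151, 31180 and 30650 with SN-011, 26270 and 29970 with vehicle and 32640 and 32300 in WT cells. Replicate 1 was thus low in both the H151 and the vehicle group. Against replicate 2 of H151 the median member differed by 0.07 and 0.04 in the 2 SN-011 libraries, and against replicate 1 by 0.38 and 0.32. Without replicate 2 of H151, 38 of these genes were called. Of 31 nuclear-encoded respiratory chain genes, 0 were called by any of the 3 tests, 9 lay higher at an unadjusted p under 0.05 (4.27% of all genes) and the median was 0.17. Against replicate 2 of H151 their median difference was 0.10 and 0.015 in the 2 SN-011 libraries, and against replicate 1 it was 0.32 and 0.26.

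Transcript length moved with the same difference. With genes divided by exonic length into 4 bins of like size, from short to long, the median log2 fold change of SN-011 versus H151 went from 0.08 through 0.03 and -0.0032 to -0.05. For SN-011 versus vehicle it went from 0.07 to -0.03, and for H151 versus vehicle from -0.01 to 0.01. In the shortest bin the median difference was 0.13 for both SN-011 libraries against replicate 1 of H151 and 0.03 and 0.01 against replicate 2. The called genes had a median exonic length of 4709 bases, beside 4075.5 over all tested genes, and 3, 6, 8 and 6 of them fell in the bins from short to long. The part of length in the calls was not tested.

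RNAs without a poly(A) tail were read because the libraries were made from polyadenylated RNA. The list also holds Lars2, a protein-coding gene, so not every member lacks a tail. Of 11 tested on that list, 5 lay higher with SN-011 at an unadjusted p under 0.05 (4.27% of all genes). Of the 11, 0 were called by edgeR or DESeq2 and 4 by the exact test. The summed level was 2515 and 1454 CPM with SN-011, 1274 and 1356 with H151, 1202 and 1253 with vehicle and 1811 and 1809 in WT cells. CT010467.1, annotated as ribosomal RNA, measured 125 and 158 CPM with H151 and 911 and 193.5 CPM with SN-011, with a log2 fold change of 1.97, edgeR FDR 0.183. Replicate 1 of SN-011 alone was far above the rest. Gm26917, a noncoding RNA beside it on chromosome 17, measured 90.35 and 90.7 CPM and 167 and 109.7 CPM (0.62, edgeR FDR 0.22), and Rn7sk, the small nuclear RNA that holds the elongation factor P-TEFb inactive, 2.44 and 3.90 CPM and 8.32 and 5.26 CPM (1.10, edgeR FDR 0.26). Without replicate 2 of SN-011, CT010467.1 and Gm26917 were among the genes called higher. Against vehicle, SN-011 was called higher for 4 of the 11 (0.11% of all genes), namely CT010467.1, Gm26917, Rn7sk and mt-Rnr2, a mitochondrial ribosomal RNA named after its values were seen, and for 0 of them without replicate 1 of SN-011, while H151 was called higher for 0.

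**Figure D5:**
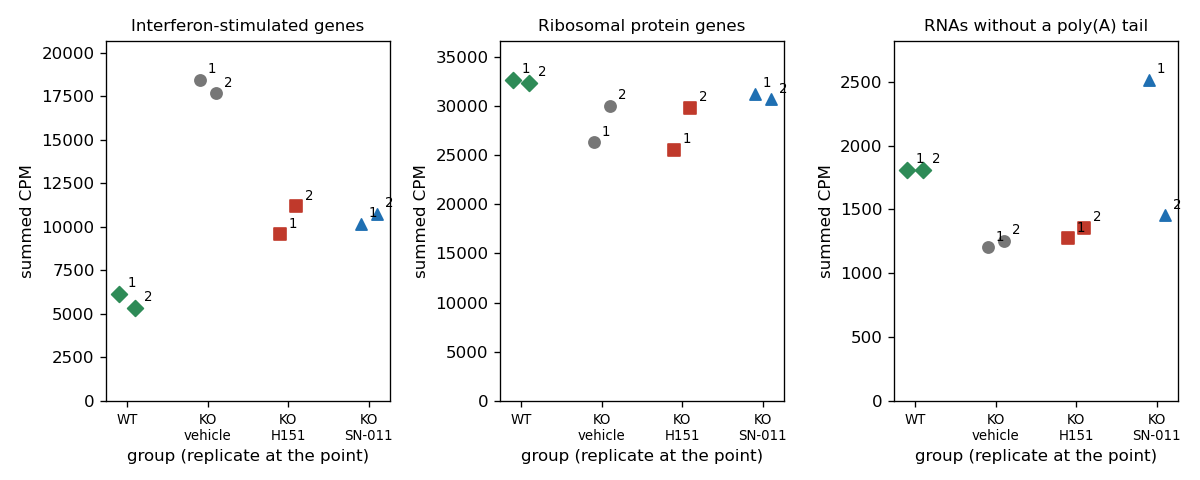
Summed CPM (vertical axis, from 0) of interferon-stimulated genes, cytosolic ribosomal protein genes and the list of RNAs without a poly(A) tail (which also holds Lars2) in each library, by group, with the replicate number at each point. Interferon-stimulated genes are at a like level with H151 and SN-011, replicate 1 is low for ribosomal protein genes with vehicle (26270) and H151 (25500), and replicate 1 of SN-011 is high for tail-less RNAs (2515).

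Over the 43 gene lists read, in edgeR 30 held 0 called genes, 12 held 1 and the AhR list held 3. The 27 lists not described above held at most 1 gene called by edgeR each, all named here. Among these 27, DESeq2, the exact test or both called 2 genes in the lists of scavenger receptors, lysosomal genes and C-type lectin receptors, and the exact test called 1 each in those of cell cycle and inflammasome genes. In the 20 of these with at least 10 tested members, the median log2 fold change ran from -0.32 for CXC chemokines, where Pf4 was the single call, to 0.14 for CC chemokines.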

How the data were processed

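RNA-Seq of poly(A) RNA was available for 8 BMDM libraries, with groups and replicate numbers read from the sample titles. The authors trimmed paired reads with Trimmomatic, aligned them with hisat2 and, per the methods, counted unique pairs per gene with featureCounts, while the submitters' processing notes name HISAT2 and HTSeq and the build mm10. The deposited values are raw counts for 54532 genes, and versions and the strand setting are not given in the sources used here. Symbols and positions came from GENCODE mouse release 21 (GRCm38), which held 54495 identifiers.

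Counts were tested in R 4.3.3 with edgeR 4.0.16 (filterByExpr with a minimum count of 10, TMM, 1 mean per group over all 8 libraries, two-sided quasi-likelihood F-test, Benjamini-Hochberg adjustment over 14591 genes, FDR threshold 0.05). Adjusted p and FDR are the same value. Standard errors and 95% intervals were derived from the fold change and the F statistic and are approximate. One count was worth between 0.0579 and 0.0844 CPM, and floors of 3 counts cover counting error only. DESeq2 1.42.0, the edgeR exact test and other settings were alternatives, and the fit was tested on simulated data.

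Members and gene lists were chosen with earlier results of these data known. Genes were named as up to 12 called genes per direction whose average log2 CPM reached 2 and whose libraries did not overlap, 6 uncalled genes where a direction held fewer, the tested AhR genes (1 of the 20 is counted but not reported here), Trex1, Tmem173, Cgas, called list members and 8 genes known before. Replicate numbers were not taken as pairs, since only 1 of 3 correlations exceeded 0.1: departures from the group mean in libraries of the same number correlated across genes at 0.19 between vehicle and H151, -0.0055 between vehicle and SN-011 and -0.02 between H151 and SN-011. Promoters are RefSeq's. No library was left out of the main fit.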

Additional observations from a re-analysis of the deposited data

How the results depend on the processing

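The 23 called genes kept their direction in all 13 alternative fits (of 298 values with an adjusted p, 62 were no longer called), and Notch1 and Ahrr kept their call in each. Leaving out an antagonist library could hardly reverse a direction, since the antagonist libraries did not overlap in these genes. The number of calls was less stable. DESeq2 called 41 genes (3 higher, 38 lower), the edgeR exact test 84 (24 higher, 60 lower), the fit that kept genes with at least 1 count 266 (152 higher, 114 lower), and a requirement of 2-fold change left 3. With genes of at least 1 count kept, the estimated gene-to-gene spread collapsed to 1 shared value (infinite prior degrees of freedom, beside 9.12), and calls against vehicle rose to 525 for H151 and 679 for SN-011. RLE factors gave 23 calls, total counts 19, the stricter filter 22, the 4 antagonist libraries alone 20, and the 6 knockout libraries, added after the data were seen, 21.

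Leaving out 1 antagonist library gave between 2 (without SN-011 replicate 1) and 291 calls (without H151 replicate 2), with 0 to 190 higher and 2 to 101 lower, and between 131 and 493 calls of SN-011 against vehicle. The lone library is then assumed to vary like the other groups. Over these 4 fits AhR members called ran from 1 to 3 with medians from -0.20 to -0.12, NRF2 members called from 0 to 4 with medians from -0.14 to -0.11, interferon-stimulated members called from 0 to 7, M7core members called from 0 to 7, and ribosomal protein members called from 0 to 38 with medians from 0.057 to 0.34. Called members under the other settings were 1 NRF2 target with DESeq2, 4 NRF2 targets and 1 interferon-stimulated gene with the exact test, and 5 NRF2 targets, 4 interferon-stimulated, 4 M7core and 34 ribosomal protein genes with genes of at least 1 count kept. The cause was not tested.

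Among named genes that were not called, a sign changed over the 4 fits for Nfe2l2 (-0.11 to 0.022), Arnt (-0.15 to 0.080), Serpinb2 (-0.78 to 0.024), Slc7a5 (-0.35 to 0.011), Ahr (-0.12 to 0.20), Arnt2 (-0.48 to 0.89) and Ugt1a6a (-0.22 to 0.27). None of these was called in any of the 4.

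With the replicate number as a block on the 6 knockout libraries, 41 genes were called (4 higher, 37 lower), among them all 23, with 1 NRF2 target, 1 interferon-stimulated gene and 2 ribosomal protein genes. Libraries of the same number varied together for vehicle and H151 but not with SN-011, so this fit was not read as a paired result.

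The data are limited by 2 libraries a group, by the later deposit of the SN-011 libraries, and by 1 dose and 1 time. Genes under about 10 counts were not tested. Absence of a call does not show that the compounds act alike, which is why intervals are given.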
